A study of Oryza sativa with 2 samples.

Results

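The transcripts described here are rice loci annotated as non-protein coding and expressed in seedling leaves. They were taken from the deposited expression table as the rows whose description reads non-protein coding transcript, whose identifier is not of the short RNA type (EPlOSAG), and whose mean over both libraries was at least 1 FPKM. FPKM stands for fragments scaled by transcript length and by the number of mapped fragments, which is meant to make rows comparable. How many reads stand behind a value is unknown, and how far levels compare between rows was not tested, the shortest loci included. The rule gave 977 of the 76131 rows. The table holds 2169 rows with this description and identifier, of which 45.0% reached the level. Of the 35476 rows that are neither of this kind nor short RNAs, called coding rows here, 58.4% did, giving 20702 measured coding rows. These include rows described as hypothetical genes. Of the 1192 non-coding rows that fell short, 684 were listed at 0 in both libraries. Since members were chosen by this mean over NT and PGD1:Roc10, their levels are a description and support nothing. The 3 rows just inside the limit, OS12G0136950, OS03G0757550 and OS05G0316166, all had a mean of 1.01 FPKM, and the 3 just outside, OS02G0556750, OS05G0503650 and OS03G0691900, had means of 0.991, 0.981 and 0.974 FPKM.

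Long non-coding RNAs are transcripts without an evident protein-coding frame. Many are spliced and polyadenylated as messenger RNAs are. Some lie between genes and others overlap a coding gene on the same or the opposite strand, as the antisense transcripts of the Arabidopsis flowering repressor gene FLC do. In rice the non-coding RNA LDMAR is known for its part in photoperiod-sensitive male sterility. The rows analysed here carry no such names: all 977 share 1 stock description, with no evidence for a reading frame, so they are described by identifier, level and position.

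Leaves of 2-week-old seedlings of the cultivar Ilmi were compared between nontransgenic plants (NT) and Roc10 overexpressors labelled PGD1:Roc10. Roc10 is a homeodomain-leucine zipper transcription factor that the series title links to lignin and drought tolerance, and the labels call PGD1 a whole body promoter. Each group is 1 library of total RNA, both from seedlings germinated at 28 °C for 4 days and grown in soil under normal conditions. How many plants or transgenic lines a library holds is not stated in the labels. With 1 library per group there is no replicate check and no test, and every difference below compares these 2 libraries. In NT 27683296 read pairs were mapped, against 21866514 in PGD1:Roc10. No symbol or description in the table holds the name Roc10, and the level of the transgene was not checked here. Leaf markers were abundant, with a summed level of 19143 FPKM in NT and 18601 FPKM in PGD1:Roc10 over 14 chlorophyll a/b-binding protein rows. No row of the prolamin, root-specific or pollen and anther lists reached a mean of 1 FPKM, while 5 of 20 glutelin rows did. In whole leaves, fewer cells of a type and less RNA per cell cannot be told apart.

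The rows described as non-coding ranged from the limit to the level of abundant photosynthesis messengers. The highest chlorophyll a/b-binding row gave 4516 FPKM in NT. The description is that of the annotation, and whether each row lacks a coding frame was not tested, the most abundant rows included. The median of the member means was 8.07 FPKM, against 11.8 FPKM for measured coding rows. Members summed to 4.38% of the FPKM of all rows other than short RNAs in NT and to 4.36% in PGD1:Roc10. Of the 977 rows, 422 had a mean of at least 10 FPKM, 53 of at least 100 FPKM and 3 of at least 1000 FPKM. The top 2 rows held 27.3% of the summed level of all members. Whether these 2 rows encode a protein was not tested, so this share is not a measure of non-coding RNA in the leaf.

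The most abundant row so described by the annotation was OS08G0435900 (chromosome 8, 21171277 to 21172654), with 5841 FPKM in NT and 5650 FPKM in PGD1:Roc10. OS01G0639900 (chromosome 1, 25696670 to 25705077) followed with 4570 and 4176 FPKM. Neither overlaps a coding row, and both stood at nearly the same level in the 2 libraries. The nearest measured coding row to OS08G0435900 lay 839 bases away and gave 42.7 and 41.8 FPKM. For OS01G0639900 the nearest lay 13807 bases away and gave 25.7 and 26.0 FPKM.

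OS11G0171350 (chromosome 11, 3488767 to 3491609) gave 1133 FPKM in NT and 1008 FPKM in PGD1:Roc10. It shares its locus with OS11G0171300, a chloroplast fructose-bisphosphate aldolase gene of carbon fixation, at 3626 and 3268 FPKM. Both rows of this locus were slightly lower in PGD1:Roc10. OS08G0382500 gave 1027 and 783 FPKM in a locus with a peptidyl-prolyl isomerase-like gene, OS08G0382400, which encodes a protein-folding enzyme and gave 97.6 and 86.4 FPKM. In this locus the non-coding row was the more abundant. OS06G0264800, OS01G0720500 and OS01G0662600 overlap no coding row. They gave 835 and 757 FPKM, 725 and 718 FPKM, and 681 and 636 FPKM in NT and PGD1:Roc10. The remaining row among the 8 most abundant, OS09G0358300, owes its mean to PGD1:Roc10 alone and is described with the short loci.

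**Figure D1:**
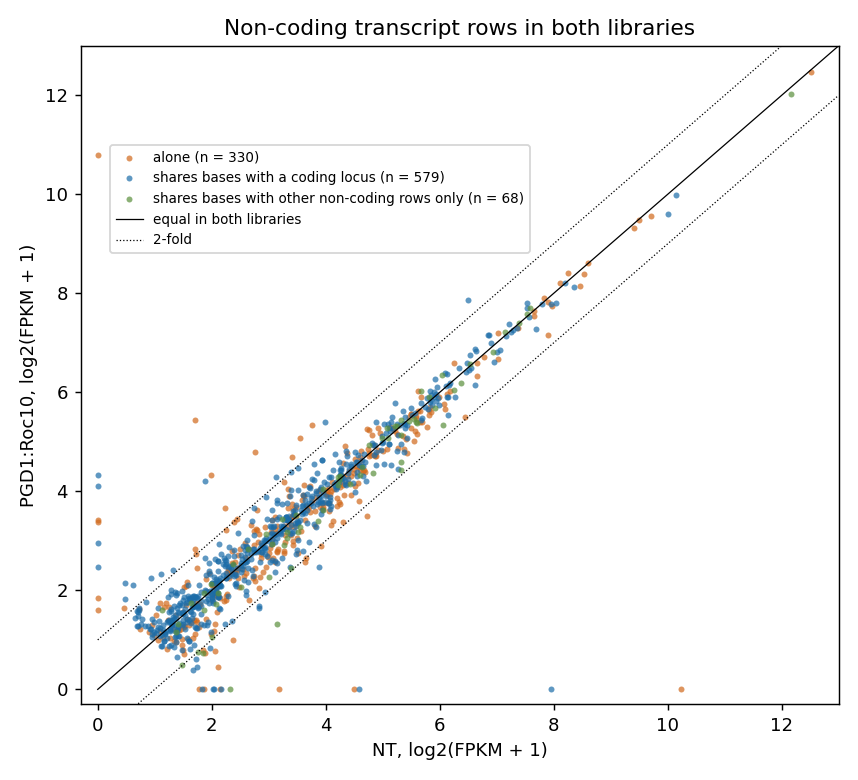
Level of each of the 977 non-coding rows in NT (x axis) and PGD1:Roc10 (y axis), both as log2(FPKM + 1), coloured by what shares the locus. The solid line marks equal levels and the dotted lines a 2-fold difference. Most points lie between the dotted lines, and the 22 rows listed at 0 in 1 library lie on the axes.

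Position was read from the locus column, with coordinates on IRGSP-1.0. Whether starts count from 0 or from 1 is not stated. All 579 rows found to overlap a coding row carry the same locus entry as that row, so the extent of a single row inside it is not known and a locus can be chained over several rows. By this column these 579 of the 977 rows (59.3%) shared at least 1 base with the locus of a coding row. Another 330 were alone in their locus, and 68 shared it only with other non-coding rows, short RNA rows included. Among the 1192 non-coding rows below the limit 45.4% overlapped a coding row, and among measured coding rows 24.2% overlapped another coding row. Most overlaps were simple: 534 of the 579 rows met 1 coding row and 45 met more.

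The table has no strand column. It lists each of the 12 chromosomes as exactly 2 ascending runs of positions, with no statement of what the runs stand for. Of 404 non-coding rows that share a locus with 1 coding row and nothing else, 390 stand in a different run from that coding row. The libraries are strand-specific per the labels, but whether reads were counted by strand is not given in the sources used here. Values of rows with a common locus are given as the table assigns them, and whether each read was assigned to the right row was not tested.

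Levels differed with position. Rows alone in their locus had a median of 9.43 FPKM and those sharing bases with a coding locus 6.36 FPKM. The 68 rows sharing bases only with other non-coding rows had 17.9 FPKM. Loci of rows that stand alone were also shorter, with a median of 665 bases against 4247 bases for loci shared with coding rows. The middle ranges overlap, at 3.91 to 22.6 FPKM for the former and 2.32 to 17.9 FPKM for the latter between the lower and upper quartile. Rows were spread over all chromosomes in similar proportion to coding rows, from 40.7 per 1000 measured coding rows on chromosome 7 to 53.9 per 1000 on chromosome 10. Chromosome 3 had the most, at 142.

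**Figure D2:**
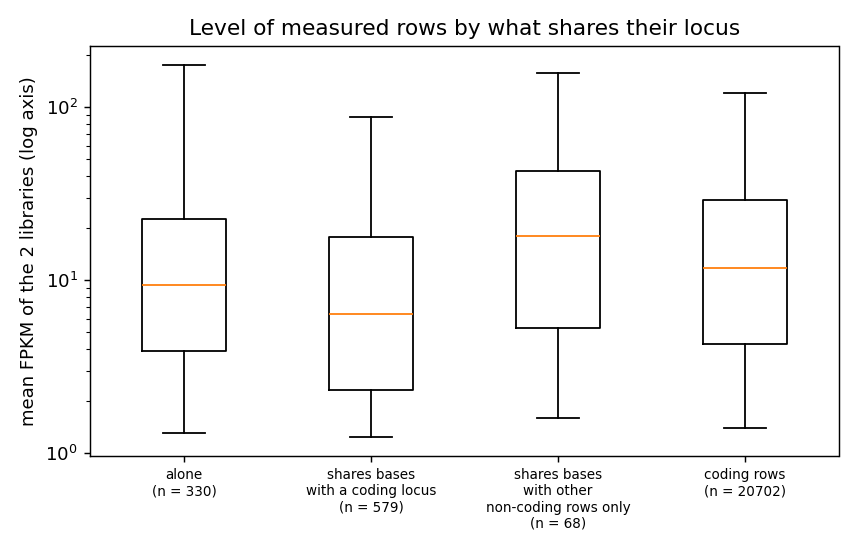
Mean FPKM of both libraries (log axis) for non-coding rows in 3 classes of locus and for measured coding rows. Boxes span the quartiles with the median as a line, and whiskers reach percentiles 5 and 95. The boxes overlap, with medians of 9.43, 6.36, 17.9 and 11.8 FPKM from left to right.

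The descriptions also name the cDNA behind each row. A clone of the rice full-length cDNA collection of NIAS is cited for 401 rows, of which 26.4% overlap a coding row. A wheat full-length cDNA is the evidence for 115 rows, of which 113 overlap a coding row. Single cDNA records were reused: 67 records are cited by more than 1 member and together cover 169 members. Whether reads were shared between such rows was not tested. The record used most often supports 13 rows on 5 chromosomes, with levels from 0.624 to 16.03 FPKM. Of these 13 rows, 12 overlap a coding row, and in all 12 cases the coding row had the higher mean. The overlapping gene is described as a kinase in 7 of the 12, and as like SHR5, a receptor-like kinase, in 4. On chromosome 8, for example, OS08G0202350 gave 16.03 FPKM in NT and 11.99 FPKM in PGD1:Roc10 beside the SHR5-like OS08G0202300 at 52.5 and 38.03 FPKM. OS08G0203650 gave 10.3 and 6.07 FPKM beside the SHR5-like OS08G0203600 at 16.4 and 9.45 FPKM. In both loci the non-coding row and the kinase row were lower in PGD1:Roc10, but the 13 rows did not share a direction: 6 were higher and 7 lower. OS05G0256250 on chromosome 5 gave 11.2 and 12.3 FPKM beside the SHR5-like OS05G0256100 at 20.7 and 17.5 FPKM. OS04G0616750 on chromosome 4 gave 1.48 and 4.34 FPKM beside OS04G0616700 at 10.2 and 20.2 FPKM.

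Differences between the libraries were measured on the log2(FPKM + 1) scale as PGD1:Roc10 minus NT, and 2-fold means at least 1 on this scale. Of the 977 rows, 31 (3.17%) were 2-fold higher in the PGD1:Roc10 library and 31 (3.17%) were 2-fold lower, 6.35% in either direction. Among measured coding rows 2.03% were higher and 0.923% lower, 2.95% in either direction. Among all measured rows the shares were 2.29% higher and 1.29% lower, 3.58% in either direction. The median difference was -0.02 for non-coding rows and -0.01 for coding rows, and 84.4% of non-coding rows and 91.8% of coding rows lay within 1.5-fold. After scaling both libraries to an equal FPKM total, the median of all measured rows moved to -0.19, and the counts became 25 higher and 44 lower for non-coding rows and 333 higher and 277 lower for coding rows. Scaled to an equal total over rows other than short RNAs, the median of all measured rows was 0.02, with 32 non-coding rows higher and 29 lower and 446 coding rows higher and 182 lower. Of the 330 rows alone in their locus 9.39% differed in either direction, 17 higher and 14 lower. Of the 579 sharing a coding locus 4.66% did, 14 higher and 13 lower. By evidence, 15 of the 363 rows with a plain DDBJ record were higher and 14 lower. Of the 496 with a best hit in DDBJ, 16 were higher and 17 lower, against 6.35% of all members in either direction. None of the 115 with a wheat cDNA differed. Of these, 113 overlap a coding row, the class in which 4.66% differed. Among rows listed above 0 in both libraries 22 were 2-fold higher and 18 lower. Above a mean of 100 FPKM, 49 of 53 rows lay between -0.74 and 0.32.

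Of the 62 differing rows, 22 were listed at 0 in 1 library. Each of these reached the mean of 1 FPKM only through the library where it was high, so it had to differ 2-fold, and the count supports nothing. The authors' deposited table gives all 977 rows the status OK. Short loci were also found among the differing rows. Of 58 members with a locus of up to 300 bases, 14 differed 2-fold (24.1%), 6 higher and 8 lower, and 9 of the 58 were listed at 0 in 1 library. Of 540 members with a locus over 3000 bases, 20 did (3.70%). The classes between, of up to 1000 and of up to 3000 bases, had 17 of 162 (10.5%) and 11 of 217 (5.07%). Coding rows showed the same order, at 20.7%, 8.45%, 3.56% and 1.56% from the shortest to the longest class. In each class the share was higher for non-coding rows, and the part of locus length in the difference was not tested.

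**Figure D3:**
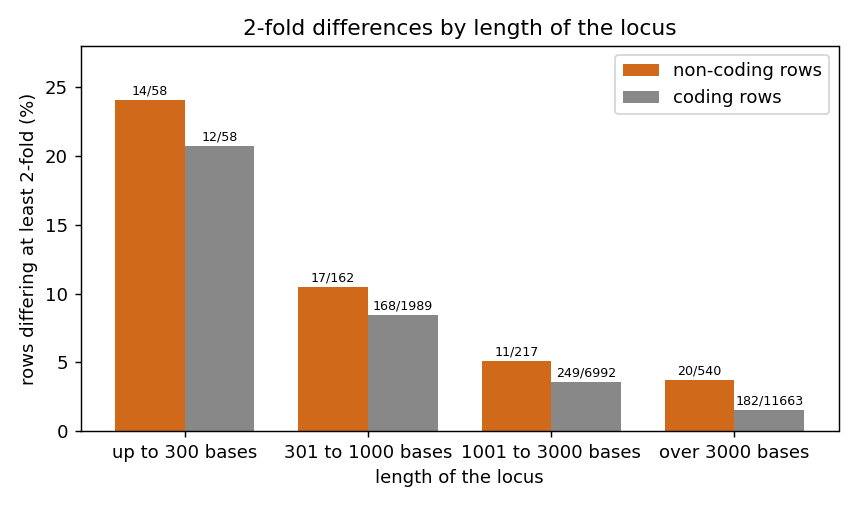
Percentage of measured rows that differ at least 2-fold in either direction, by length of the locus, for non-coding and coding rows. Numbers above the bars give differing rows over all rows of the class. The share falls from 24.1% to 3.70% for non-coding rows and from 20.7% to 1.56% for coding rows.

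The 2 largest differences sat in the shortest loci, and the next, that of OS03G0191050, in a locus of 7840 bases. OS09G0358300 (chromosome 9, 11603243 to 11603350), a locus of 108 bases, stood at 1782 FPKM in PGD1:Roc10 and was listed at 0 in NT. OS02G0175950 (chromosome 2, 4150162 to 4150271), of 110 bases, was listed at 1199 FPKM in NT and at 0 in PGD1:Roc10. These are the 2 shortest loci among the members, and they went in opposite directions. In the authors' deposited table both had q = 0.999. OS02G0787400, of 158 bases, gave 21.5 FPKM in NT and was listed at 0 in PGD1:Roc10, again with q = 0.999 in the authors' deposited table.

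In longer loci, 4 further rows with a mean of at least 5 FPKM were listed at 0 in 1 library, each beside a coding row that was not 2-fold different. OS03G0191050 gave 247 FPKM in NT and 0 in PGD1:Roc10, while the overlapping CG-1-like gene OS03G0191000 gave 33.7 and 36.0 FPKM. OS05G0112050 gave 22.9 FPKM and 0, while XB3, a ubiquitin ligase of the rice immune receptor XA21, gave 28.6 FPKM in both libraries. OS01G0666900 and OS07G0684500 were listed at 0 in NT and gave 16.2 and 19.3 FPKM with the transgene, beside overlapping rows at 34.1 and 29.9 FPKM (OS01G0666950) and at 12.3 and 9.28 FPKM (OS07G0684400). The authors' deposited table called none of these 4 non-coding rows significant. Over all 9 overlapping members listed at 0 in 1 library the coding row differed by between -0.59 and 0.46.

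Among rows above 0 in both libraries, OS01G0672600 (chromosome 1, 27623545 to 27623897) differed most. It gave 2.27 FPKM in NT and 42.8 FPKM in PGD1:Roc10, 18.9-fold higher. The authors' deposited table gives it q = 0.782. The nearest measured coding row, a nucleotidyltransferase-domain gene (OS01G0672700) 721 bases away, gave 14.7 and 15.8 FPKM. OS05G0368000 gave 2.99 and 19.2 FPKM, and its nearest gene, the harpin-induced-domain gene OS05G0367900, gave 8.66 and 5.09 FPKM at a distance of 5264 bases. Both non-coding rows therefore differed without a like difference in the neighbour. OS01G0610050 was 3.14-fold higher, at 39.4 against 12.5 FPKM. Its nearest row OS01G0610100, 1146 bases away, gave 89.5 against 75.2 FPKM. In the other direction, OS02G0330601 gave 25.5 FPKM in NT and 10.4 FPKM in PGD1:Roc10. OS11G0417800 gave 11.5 and 4.97 FPKM and OS06G0505501 gave 14.1 and 6.47 FPKM. All 3 stood in NT at more than 2 times their level in PGD1:Roc10, and their nearest measured coding rows lay 24007, 38908 and 3142 bases away and did not differ 2-fold.

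The authors' deposited table called 2 of the 977 rows significant (0.205%), against 0.589% of measured coding rows and 0.579% of the 24683 rows it tested. Both lie on chromosome 12 and were higher in PGD1:Roc10. OS12G0113550 (688954 to 689479) stood at 9.39 FPKM in PGD1:Roc10 and was listed at 0 in NT, and the authors' deposited table gives it q = 0.0111. OS12G0556200 (22628909 to 22632952) gave 5.78 and 26.7 FPKM, 4.63-fold higher, and has the same q = 0.0111 by the authors' deposited table. Each is alone in its locus and has a neighbour that differed in the same direction. The hypothetical gene OS12G0113600, 525 bases from the former, gave 0.428 FPKM in NT and 5.47 FPKM in PGD1:Roc10. The calmodulin binding protein-like gene OS12G0556300, of a family that takes part in calcium signalling and 2880 bases from the latter, gave 0.339 and 3.30 FPKM. The authors' deposited table called neither neighbour significant, with q = 0.999 for OS12G0113600 and q = 0.142 for OS12G0556300.

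Each non-coding row was then set beside the coding row it overlaps, taking the most abundant where there were several. A measured coding row was available for 516 rows, and 486 of these partners stand in the other run of the table. The level of the non-coding row was above that of the coding row in 169 of the 516 pairs (32.8%). It was at least 10 times the partner's level in 7 pairs and the partner's level was at least 10 times that of the non-coding row in 58. Where both rows were listed above 0 in both libraries, the differences of the non-coding and the coding row had Pearson's r = 0.57 over 507 pairs. Over all 516 pairs r was 0.30 and Spearman's rank coefficient was 0.41. The 9 pairs that separate these counts are those with a non-coding row listed at 0. For 3799 measured coding rows that overlap another measured coding row, r was 0.60, to be set beside 0.30. Over the 3786 of these with every value above 0 it was 0.59, to be set beside 0.57. Here 2 overlapping coding rows can each enter with the other as partner. These correlations run across loci and share both libraries and, within a pair, part of their sequence interval, so they are given as a description.

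**Figure D4:**
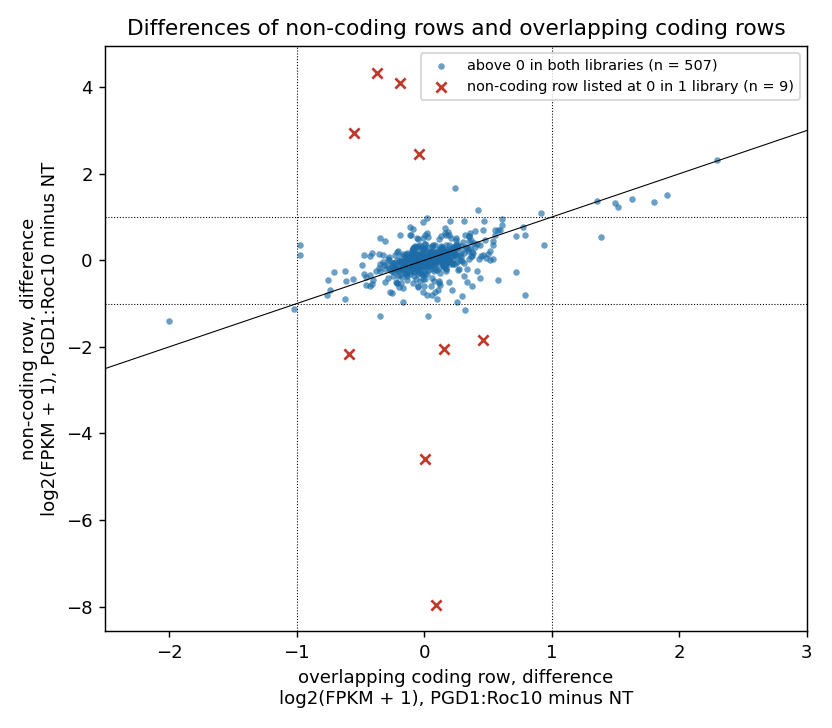
Difference of each non-coding row (y axis) against that of its overlapping coding row (x axis), both as log2(FPKM + 1) in PGD1:Roc10 minus NT, for 516 pairs. Dotted lines mark 2-fold and the solid line equal differences. In 9 of the 10 pairs with a coding row beyond 2-fold, the non-coding row is beyond 2-fold in the same direction. The 9 non-coding rows listed at 0 in 1 library (crosses) have coding rows between -0.59 and 0.46.

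The overlapping coding row differed at least 2-fold in 10 pairs, and the non-coding row did so in the same direction in 9 of these, 7 higher and 2 lower in PGD1:Roc10. For coding rows overlapping a coding row that differed 2-fold the count was 41 of 95, in which a pair can enter from both sides. Read from the other side, 15 overlapping non-coding rows above 0 in both libraries differed 2-fold, and in 9 of them the coding row did too. The authors' deposited table called 5 of the 10 coding rows significant and none of the non-coding rows of these pairs.

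The pair with the highest level was OS12G0559250 and the lipoxygenase-like gene OS12G0559200 (chromosome 12, 22854590 to 22860198), of an enzyme family that oxidises fatty acids, among them the precursors of jasmonate. The non-coding row gave 89.1 FPKM in NT and 231 FPKM in PGD1:Roc10, 2.59-fold higher, and the lipoxygenase-like row gave 38.9 and 101.2 FPKM, 2.60-fold higher. The non-coding row was the more abundant of the pair in both libraries. For OS12G0559200 q was 0.0111 in the authors' deposited table, and for OS12G0559250 it was 0.999.

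OS07G0232850 (chromosome 7, 7394485 to 7397577) gave 14.9 FPKM in NT and 41.5 FPKM in PGD1:Roc10 beside OS07G0232800, similar to the zinc transporter ZIP1, at 6.37 and 21.8 FPKM. Here too the non-coding row had the higher level. OS03G0405525 (chromosome 3, 16588546 to 16595911) gave 2.69 and 17.4 FPKM, and the hypothetical gene OS03G0405500 in the same locus gave 2.69 and 17.1 FPKM. The 2 rows of that locus were nearly equal in each library.

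At 3 further loci the non-coding row lay below a signalling or regulatory gene that was higher in PGD1:Roc10. OS09G0471300 gave 0.527 FPKM in NT and 3.34 FPKM in PGD1:Roc10 beside the wall-associated kinase gene OS09G0471400 (WAK80-like), of a family that senses the cell wall, at 4.43 and 19.3 FPKM. OS03G0203750 gave 0.395 and 2.54 FPKM beside OS03G0203700, similar to a plasma membrane calcium-transporting ATPase, at 4.96 and 19.7 FPKM. OS03G0133050 gave 0.903 and 3.77 FPKM beside OS03G0133000, similar to a NAC transcription factor, at 3.88 and 12.8 FPKM. The plain ratio between libraries was 6.34, 6.41 and 4.17 for these non-coding rows and 4.36, 3.98 and 3.30 for the coding rows. For the non-coding rows these ratios rest on NT levels below 1 FPKM. On the log2(FPKM + 1) scale the order was reversed, and the coding row differed more at all 3 loci. The difference of the non-coding row minus that of the coding row was -0.396, -0.458 and -0.172. OS11G0117450, at 1.17 and 4.05 FPKM, lay beside a WRKY-like gene (OS11G0117400) at 0.647 and 3.73 FPKM, a factor class of plant defence.

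Both rows were lower at 2 loci. OS11G0291450 (chromosome 11, 10609813 to 10615884) gave 13.7 FPKM in NT and 4.54 FPKM in PGD1:Roc10, and the hypothetical gene OS11G0291475 gave 22.5 and 4.88 FPKM. OS05G0253301 gave 2.91 and 0.788 FPKM beside OS05G0253200 at 2.93 and 0.934 FPKM. The single locus in which the coding row differed 2-fold and the non-coding row did not was that of PIP2-4, an aquaporin gene, at 5.50 and 16.04 FPKM, where OS07G0448150 gave 9.36 and 14.1 FPKM.

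**Figure D5:**
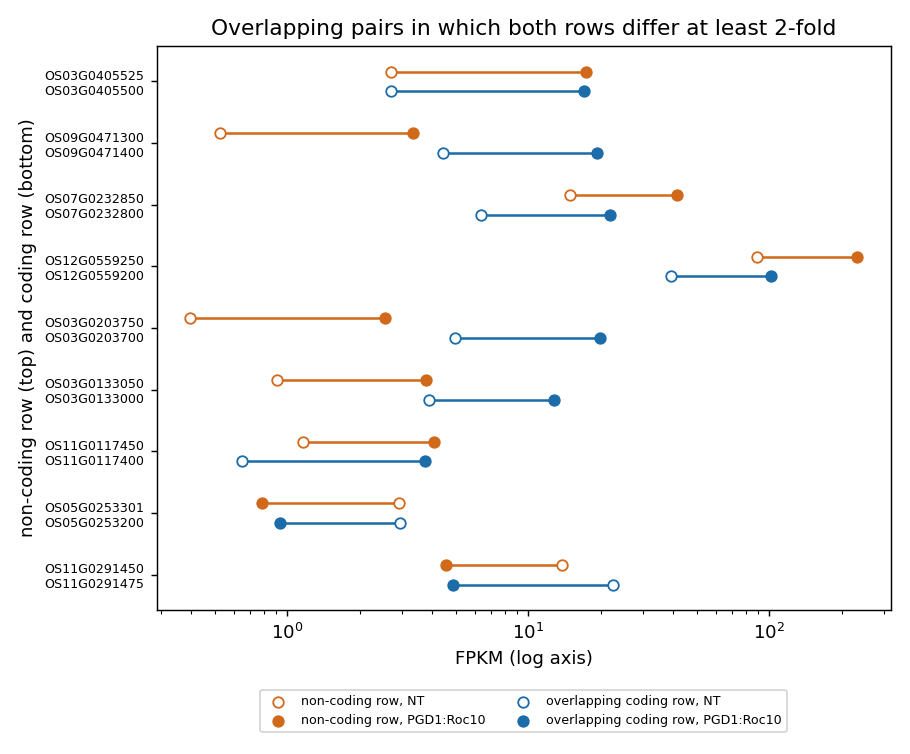
FPKM (log axis) in NT (open circles) and PGD1:Roc10 (filled circles) for the 9 overlapping pairs in which both rows differ at least 2-fold. In 7 pairs both filled circles lie to the right of the open ones, and in 2 pairs both lie to the left.

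Pairs with different changes were also found. OS07G0447900 gave 9.35 FPKM in NT and 4.58 FPKM in PGD1:Roc10 while the overlapping phosphohexomutase-domain gene OS07G0447800 gave 33.7 and 36.2 FPKM. OS11G0284950 gave 0.387 and 3.43 FPKM beside a glutathione peroxidase-like gene (OS11G0284900) at 3.31 and 4.09 FPKM. OS10G0544933 gave 7.69 and 18.5 FPKM beside a protein phosphatase 2C-like gene (OS10G0544900) at 12.3 and 16.8 FPKM. In these loci the non-coding row was the one that differed more.

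For the 398 rows that overlap no coding row, the nearest measured coding row served as the partner. The differences of both had r = 0.22 and a Spearman coefficient of 0.23. For 15686 coding rows that overlap no other coding row and their nearest neighbour r was 0.13. Among the 131 non-coding rows with a neighbour within 1000 bases r was 0.51, and 0.41 over the 126 pairs with every value above 0. For the 4582 coding rows with a nearest neighbour within 1000 bases r was 0.14, and 0.17 over the 4559 with every value above 0. With a mean of at least 5 FPKM in both rows, at any distance, r was 0.05 over 209 pairs. The neighbour differed 2-fold in 8 cases, and in 5 of them the non-coding row did so in the same direction. Among these 5, OS02G0175950 and OS12G0113550 were listed at 0 in 1 library. They had to differ 2-fold in either direction, so the count is a description only. For coding rows, which can enter from both sides of a pair, the count was 50 of 449.

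Both rows on chromosome 12, OS02G0175950 and OS02G0176650 were among these 5. OS02G0176650 (chromosome 2, 4195528 to 4195944) gave 9.68 FPKM in NT and 24.9 FPKM in PGD1:Roc10. The autoinhibited calcium ATPase-like gene OS02G0176700, which begins 80 bases away and whose class of pumps exports calcium from the cytosol, gave 9.54 and 24.3 FPKM. The authors' deposited table called the coding row OS02G0176700 significant, but not the non-coding row OS02G0176650. Both rows were close in level in each library. OS02G0175950, the 110-base row, lies 29 bases from the B-box zinc finger gene OS02G0176000, which gave 6.35 FPKM in NT and 2.53 FPKM in PGD1:Roc10. At the other 3 loci the neighbour alone differed 2-fold. OS03G0812500 gave 27.0 and 34.4 FPKM at a distance of 1993 bases from the EF-hand gene OS03G0812400, which encodes a calcium-binding domain and gave 0.710 and 59.2 FPKM. OS03G0259300 gave 23.3 and 24.95 FPKM near the plantacyanin-like OS03G0259100 at 0.590 and 2.29 FPKM. OS01G0264900 gave 8.60 and 8.85 FPKM near the aromatic-ring hydroxylase-like OS01G0265000 at 3.76 and 0.970 FPKM.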

How the data were processed

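RNA from leaves was sequenced as 1 strand-specific library per group, per the labels' protocols. Read pairs were aligned with TopHat 2.0.12 to IRGSP-1.0 with Ensembl Plants release 23 and quantified with Cufflinks and Cuffdiff 2.2.1, per the file headers. The deposited values are FPKM, and hold no read counts, so how many reads stand behind a value is unknown. The p-value and q-value columns deposited by the authors compare 1 library with 1 and were copied, not recomputed. Strand and normalization options are not stated there.

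Members, lists and naming rules were chosen with earlier results of these data known. Columns were assigned to groups through the library codes in the labels. Differences are log2(FPKM + 1), which understates the change of low rows, and folds beside 2 values are plain ratios. Overlap means at least 1 shared base of the deposited loci. The nearest row is the one with the smallest gap. Rows named are the 8 most abundant, the 8 highest and 8 lowest differences, those listed at 0 in 1 library (both with a mean of at least 5 FPKM), those called by the authors, the 5 overlapping pairs farthest apart, up to 5 pairs differing together with an overlapping row or a neighbour within 5000 bases, and 3 on each side of the limit. No member is named as a known RNA. 1 pair that meets the rule is not reported here. Other rows, and the split by table run and by cDNA, were chosen after their values were seen. Overlap and pairing code was tested on simulated loci. Python 3.11.15, NumPy 2.4.6, pandas 2.3.3 and matplotlib 3.10.9 were used. No sequence is printed, since none was among the sources used here.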

Additional observations from a re-analysis of the deposited data

How the results depend on the processing

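No paired analysis was possible because each group is 1 library. The median difference was -0.20 with both libraries scaled to the same total FPKM over all rows, and between -0.08 and 0.01 in the other 11 settings. The 31 higher and 31 lower rows became 49 and 52 with a pseudocount of 0.1, 15 and 5 with 5, 72 and 80 at 1.5-fold, 11 and 10 at 4-fold, 16 and 8 among the 595 rows averaging 5 FPKM or more, and 17 and 14 among the 330 rows alone in their locus (9.39%, against 6.35% of all members). The lower rows numbered 13 above a mean of 2 FPKM and 18 without rows listed at 0. Over loci longer than 300 bases, a setting chosen after the data were seen, the counts were 25 and 23. The 977 members became 1485 with every row of a mean above 0 kept, and 595 with a mean of at least 5 FPKM. For overlapping pairs Spearman's coefficient was 0.41 and r without rows listed at 0 was 0.57. With the partners that differ 2-fold left out as well, a setting added after the data were seen, r was 0.39. For nearest pairs r was 0.054 above 5 FPKM and 0.51 within 1000 bases. The count of overlaps stayed within 1.5 times its value in 3 of 3 settings.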
